A study of Mus musculus with 620 samples.

Results

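Gene expression was compared in heart RNA from aged mice that had received exenatide and from aged control mice of the long-term cohort, which the labels call LT. The rule took the LT libraries titled LT_A_Ex and LT_A_ctrl whose tissue was heart, which gave 17 of the 620 libraries of the series, 8 with exenatide and 9 controls, each from a different animal. Sequencing batch 2 held 5 exenatide and 5 control hearts and batch 3 held 3 and 4. The 8 hearts of young controls of the cohort (LT_Y_ctrl, 5 and 3) entered the same fit and gave the age comparison. Strain, age in months, dose, route and duration are not stated in the labels used here, and no label gave these animals an engineered allele. Hearts of 2 other cohorts came from other animals and were read beside the LT values. ST gave 5 aged mice with exenatide and 5 aged controls. YA, which the authors' deposit names the young cohort, gave 8 mice with exenatide and 8 controls. The ST fit took in all 30 ST hearts, which include young controls, aged mice with rapamycin, and aged mice with hypothalamic knockdown of GLP-1R with and without exenatide. The labels say that each library is 1 animal and say nothing of cage or litter.

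Exenatide is a peptide drug that activates the receptor of the gut hormone GLP-1, which signals through Gs proteins and cyclic AMP. In the pancreas it raises glucose-dependent insulin secretion, and in the brain it lowers food intake. In the mouse heart the receptor is known mainly from the atria, so that a treated heart can respond to its own receptor, to nerves and hormones, or to a changed supply of fuel. Heart muscle depends on chaperones, proteins that fold and refold other proteins. Heat shock factor 1 drives many of their genes when unfolded proteins accumulate.

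The libraries matched their tissue label. Myh6, the main myosin of the adult mouse heart, lay between 14690 and 37100 CPM (counts scaled to the size of each library) in the 17 aged hearts, while the skeletal muscle myosins Myh1 and Myh4 had a median of 0 CPM in each group. The libraries held 15.19 to 25.91 M counts each. The aged control of animal B16 stood apart in atrial transcripts: the summed level of 13 atrial genes was 9602 CPM there, against 171 to 448.7 CPM in the other 8 aged controls and 150.2 to 465.6 CPM with exenatide. Glp1r itself had no count in the young hearts and at most 1 count in any aged heart, with a count in 2 of 9 controls and in 2 of 8 hearts with exenatide. A count of 0 allows up to 3 counts, or 0.197 CPM in the shallowest library (counting error only), so Glp1r was not tested and its level could not be compared at this depth. The glucose-dependent insulinotropic polypeptide receptor gene Gipr was also too low to test, with 3 to 15 counts in aged hearts.

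In the LT hearts 402 genes rose and 201 fell with exenatide at an adjusted p under 0.05 (edgeR's quasi-likelihood test, Benjamini-Hochberg adjustment over 15036 genes), that is 2.67% and 1.34% of the genes tested, while 3751 had an unadjusted p under 0.05. The changes were small: the median size among called genes was 0.35 on the log2 scale and 15 changed by more than 2-fold. Their direction was alike in both batches, with 602 of 602 called genes that could be fitted in batch 2 and 601 of 601 in batch 3 on the same side as in the joint fit, which was made from both. The count depended on single animals. It was 82 without exenatide animal B40, 198 without B13 and 237 without B36, and 111 without control B15, 129 without B24, 220 without B27 and 1059 without B41. Without B16, the control with atrial transcripts, it was 419. With no batch term 4 genes were called. Batch 2 alone gave 198 calls and batch 3 alone gave 0, with 2108 genes at an unadjusted p under 0.05.

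The genes that rose were long and poor in GC, and those that fell were short and rich in GC. The longest annotated transcript had a median of 5081 nt and 42.4% GC among genes that rose, 2418 nt and 56.1% among those that fell, and 3331 nt and 49.9% among the rest. The mean level of 2011 long, GC-poor genes minus that of 2073 short, GC-rich genes was higher in the exenatide hearts within each batch: 1.158 to 1.377 against 0.747 to 1.16 in batch 2 and 0.414 to 0.555 against -0.07 to 0.368 in batch 3, on the log2(CPM + 1) scale. The difference was 0.29 (two-sided exact permutation within batches, p = 0.000794). The index was chosen after the pattern had been seen in the same LT hearts, so this p is no independent test of it. The same index differed by -0.10 in ST (p = 0.349) and by -0.05 in YA (p = 0.643), both by exact permutation. Where each library's trend on length and GC was removed before the fit, a step chosen after seeing the data, 52 genes rose and 50 fell (0.346% and 0.333%), and 79 of the 603 were still called, 43 of them higher and 36 lower. What the trend came from was not tested. Of the 45 genes reported by the naming rule and called, 18 were not called with the trend removed, and each of these is said below.

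**Figure D1:**
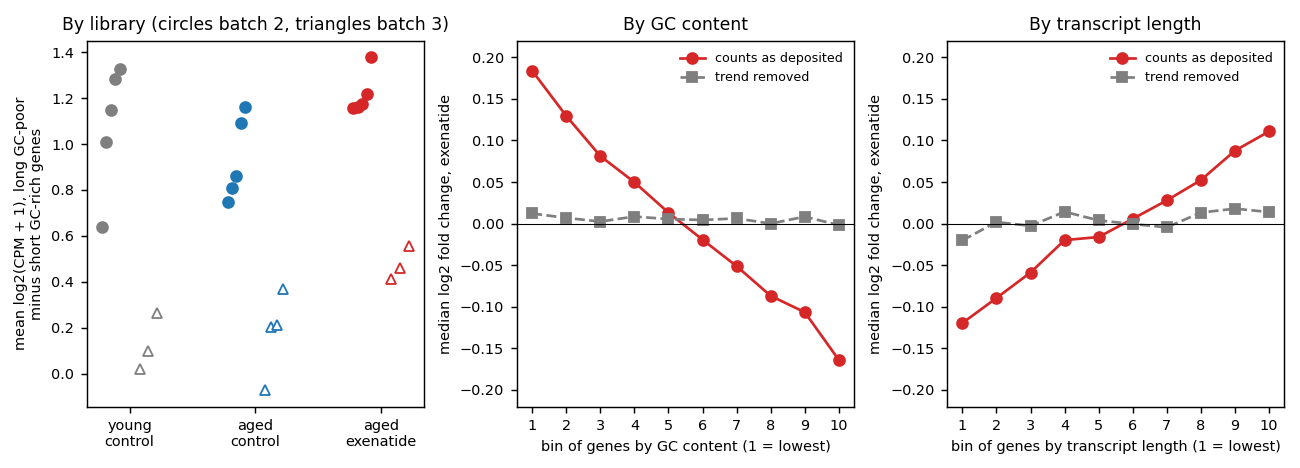
Left, the length and GC index of each LT heart (y axis, mean log2(CPM + 1) of long GC-poor genes minus short GC-rich genes) by group, with batch 2 as circles and batch 3 as open triangles. Middle and right, the median log2 fold change with exenatide in 10 bins of genes by GC content and by transcript length, from 0.18 in the GC-poorest to -0.16 in the GC-richest bin with the counts as deposited, and close to 0 with the trend removed.

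Among the 10 genes with the smallest p that rose were transcription factors and signalling genes that separated the groups without overlap. Meox2, a homeobox factor of endothelium and mesoderm, lay at 18 to 26.9 CPM in aged controls (median 22.6) and at 32.7 to 39.1 CPM with exenatide (median 34.9), so every treated heart was above every aged control. The log2 fold change was 0.65 ± 0.10 (SE; adjusted p = 0.0045) and stayed at 0.63 with the trend removed (adjusted p = 0.0044). Young hearts held 23 to 40.7 CPM, and the aged controls were lower than the young (-0.46 ± 0.10, adjusted p = 0.0037). Ptger4, the EP4 receptor for prostaglandin E2, lay at 7.12 to 10.5 CPM (median 9.6) in aged controls and at 12.2 to 23.2 CPM (median 14.3) with exenatide, again without overlap. It rose by 0.69 ± 0.11 (adjusted p = 0.0045) and did not differ detectably between aged and young hearts (-0.08, adjusted p = 0.675). The LIM homeobox gene Lhx6 lay at 3.48 to 6.02 CPM (median 5.4) in aged controls, 6.13 to 12.8 CPM (median 8.06) with exenatide and 6.95 to 10.9 CPM in young hearts. Its rise was 0.71 ± 0.13 (adjusted p = 0.0075), beside an age difference of -0.72 (adjusted p = 0.00054). These 3 genes, like the others of the 10, remained called when each of the 17 aged animals was left out. All were chosen by p in these same hearts, so separation and kept calls are no independent support.

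**Figure D2:**
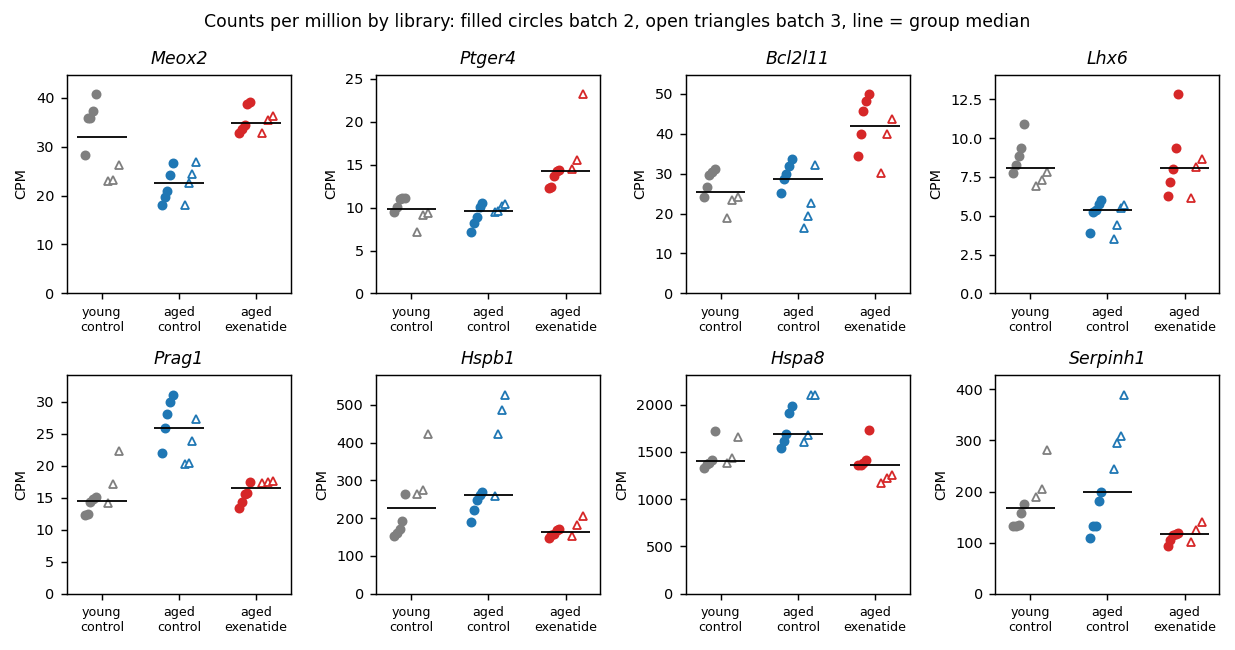
CPM (y axis, from 0) of 8 leading genes in each LT heart, by group, with filled circles for batch 2, open triangles for batch 3 and a line at the group median. Meox2, Ptger4 and Lhx6 are higher in every exenatide heart than in every aged control, Prag1 is lower in every one, and the highest values of Hspb1 and Serpinh1 are in batch 3 controls.

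Bcl2l11 encodes BIM, a pro-apoptotic member of the BCL-2 family. It lay at 16.3 to 33.5 CPM (median 28.5) in aged controls and 30.2 to 49.8 CPM (median 41.9) with exenatide. All 5 treated hearts of batch 2 were above the 5 controls of that batch, while the ranges overlapped in batch 3. The rise was 0.63 ± 0.11 (adjusted p = 0.0048), and 0.57 with the trend removed (adjusted p = 0.0046). The cyclic AMP phosphodiesterase gene Pde4d lay at 37.9 to 70.7 CPM (median 53.7) in controls and 56.6 to 89 CPM (median 80) with exenatide, separate within each batch, and rose by 0.38 ± 0.07 (adjusted p = 0.0068). Gins1, a subunit of the GINS complex of DNA replication, rose by 0.78 ± 0.14 from a median of 1.91 to 3.47 CPM, and young hearts had a median of 3.42 CPM. Ifitm1, of the interferon-induced transmembrane family, rose by 1.13 ± 0.20 from a median of 3.01 to 6.4 CPM (young 5.1 CPM). Its highest treated library, animal B36, stood apart at 14.8 CPM, and without it the rise was 0.90 (adjusted p = 0.0202). The others of the 10 were Fam126a, whose product hyccin anchors a phosphatidylinositol 4-kinase complex (0.48 ± 0.07), Glcci1, a glucocorticoid-induced transcript (0.49 ± 0.09), and Med13, a subunit of the kinase module of Mediator (0.39 ± 0.07, and 0.18 with the trend removed, adjusted p = 0.046).

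The 10 genes with the smallest p that fell were led by Prag1, which encodes the pseudokinase pragmin. It lay at 20.2 to 31.1 CPM (median 26) in aged controls and 13.4 to 17.6 CPM (median 16.6) with exenatide, without overlap, beside 12.2 to 22.2 CPM (median 14.6) in young hearts. Prag1 fell by 0.65 ± 0.11 with exenatide (adjusted p = 0.0045) and was 0.73 higher in aged controls than in young hearts. Because the age and exenatide comparisons share the aged controls, the signs of these 2 differences are not independent. Of the other 9, 6 encode chaperones or folding factors and are described next. The remaining ones were Lgi4, a secreted factor of Schwann cells (-0.61 ± 0.11), the mitochondrial topoisomerase gene Top1mt (-0.58 ± 0.11) and the ATP-gated channel gene P2rx5 (-0.39 ± 0.08). P2rx5 missed the threshold with the trend removed (-0.27, adjusted p = 0.052).

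Several chaperone genes fell with exenatide. Of 20 heat shock and chaperone genes tested 0 rose and 5 fell, and 19 of 20 had a value below 0, with a median of -0.30 against 0.00 over all genes tested. Over all 15036 genes 2.67% rose, 1.34% fell and 7462 had a value below 0. The exenatide counts of this and the following lists in LT hearts stand beside these shares. Hspb1, the small heat shock protein HSP27, lay at 191 to 526.5 CPM (median 262) in aged controls, 148 to 205 CPM (median 163) with exenatide and 154 to 421 CPM (median 227) in young hearts. Within each batch the treated hearts lay below the controls without overlap. Hspb1 fell by 0.83 ± 0.14 (adjusted p = 0.0068), by 0.58 in batch 2 and by 1.23 in batch 3, and remained called with the trend removed (-0.62, adjusted p = 0.0209). Hspa8, the constitutive HSP70 (HSC70), lay at 1543 to 2104 CPM (median 1692) in controls and 1166 to 1729 CPM (median 1359) with exenatide, and animal B13 gave the highest treated value. It fell by 0.41 ± 0.08 (adjusted p = 0.0124) and by 0.45 with the trend removed (adjusted p = 0.0046). Hspa8 has near-identical processed pseudogenes, among which the authors' counting could have split its reads. The other members that fell were Hsp90ab1, the constitutive HSP90 (-0.30 ± 0.06), its co-chaperones Fkbp4 (-0.35 ± 0.09) and Stip1 (-0.32 ± 0.09; adjusted p = 0.049, named because it completes the count). With the trend removed the list again held 5 members that fell, of which only Hspa8 and Hspb1 were the same, so Hsp90ab1 (adjusted p = 0.0611), Fkbp4 (0.113) and Stip1 (0.156) were not called.

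**Figure D3:**
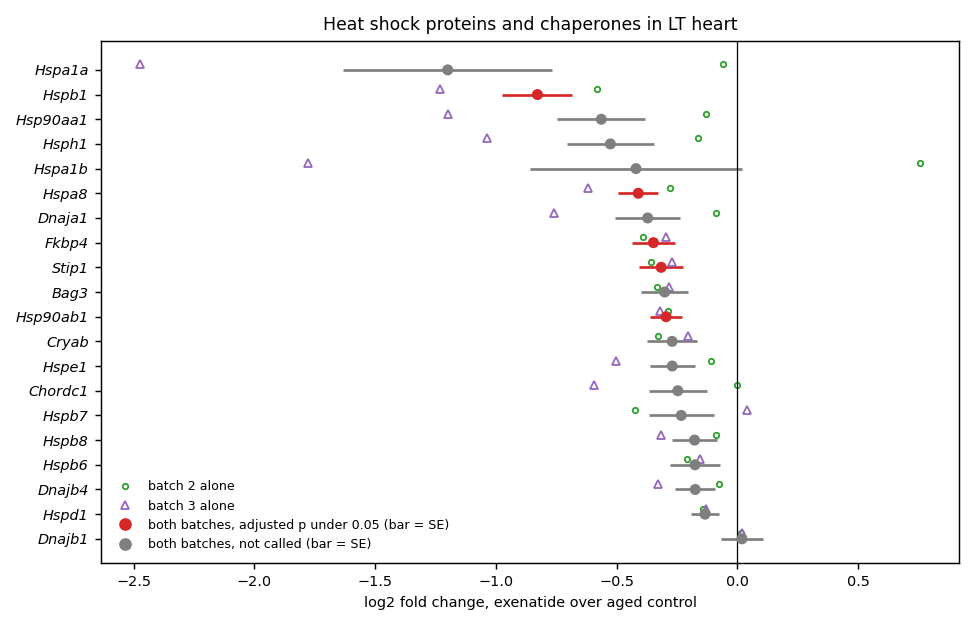
Log2 fold change with exenatide (x axis) of the 20 tested heat shock and chaperone genes, with bars for the SE of the joint fit, red for an adjusted p under 0.05, and the values of batch 2 (circles) and batch 3 (triangles) above each. Of the 20 only Dnajb1 is above 0 in the joint fit, and the stress-inducible genes Hspa1a, Hsp90aa1 and Hsph1 lie far below 0 in batch 3 alone.

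Some stress-inducible members had unlike values in the 2 batches. Hspa1a, the stress-inducible HSP70, had a joint value of -1.20 ± 0.43 that missed the threshold (adjusted p = 0.0986), with -0.06 in batch 2 and -2.47 in batch 3, and its level of 6.82 ± 9.56 CPM (SD, n = 9) in controls had a wide spread. Its neighbour Hspa1b is a near-identical copy, so reads of the pair are uncertain. Hsp90aa1, the inducible HSP90, had -0.13 in batch 2 and -1.20 in batch 3 (joint -0.56 ± 0.18, adjusted p = 0.0687), and Hsph1, of the HSP110 family, -0.16 and -1.04 (joint -0.53 ± 0.18). Bag3, a co-chaperone gene, had like values in both (-0.33 and -0.28), as did the HSP40 gene Dnajb1 (0.01 and 0.02). The difference between batches was not tested. In batch 3 the controls held 18.61 to 25.91 M counts, and 3 of the 4 were deeper than every exenatide heart of that batch (18.68 to 20.35 M). The part of depth in this was not tested.

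Chaperone genes outside that list were among the named genes that fell. Serpinh1 encodes HSP47, the collagen chaperone of the endoplasmic reticulum, and lay at 110 to 390 CPM in controls and 93.7 to 141 CPM (median 116) with exenatide. It fell by 0.81 ± 0.14 (adjusted p = 0.0068), by 0.46 in batch 2, where the groups overlapped, and by 1.33 in batch 3, where they did not. Unc45b, the myosin chaperone of striated muscle, fell by 0.34 ± 0.07 from a median of 274 to 219 CPM. The HSP40 co-chaperone gene Dnaja4 fell by 0.29 ± 0.06 from 162 to 131 CPM. Hspa1l, an HSP70 family member that lies beside Hspa1a, had 8.57 to 19.6 CPM (median 12.9) in controls and 5.5 to 9.59 CPM (median 8.66) with exenatide, and fell by 0.74 ± 0.12 (adjusted p = 0.0048). The library kit does not mark strand, so its reads cannot be told from antisense reads of a neighbour. These 4 genes remained called with the trend removed and when each of the 17 aged animals was left out. They too were chosen by p in these same hearts.

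Of 25 genes of the unfolded protein and integrated stress response, which senses misfolding in the endoplasmic reticulum, 0 rose and 2 fell, with a median of -0.14. Creld2, a secreted factor induced by such stress, lay at 7.97 to 23.3 CPM (median 11.3) in controls and 5.97 to 13 CPM (median 7.59) with exenatide, separate within each batch, and fell by 0.61 ± 0.12 (adjusted p = 0.0125). The disulfide isomerase gene Pdia4 fell by 0.31 ± 0.09, a call kept in 4 of 17 fits without 1 animal and lost with the trend removed (adjusted p = 0.0701), where Creld2 alone was called. The next members by p, Sdf2l1 (-0.53 ± 0.17, adjusted p = 0.0668) and Manf (-0.36 ± 0.13, adjusted p = 0.0834), were not called.

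Heat shock factor 1 binds inverted repeats of a short unit, and the promoters of 2 list members that fell and of Dnaja4 are printed to show whether such repeats are near the start. The sequences come from RefSeq (GRCm38.p6) and run from 250 bases before to 50 after the start, 5′ to 3′ on the gene's strand, with each match to GAANNTTC or TTCNNGAA in capitals. Each motif is its own reverse complement, so a match counts for both strands, and overlapping matches were allowed. Hspb1 lies on the plus strand at chr5:135887669-135887968, Fkbp4 on the minus strand at chr6:128438607-128438906, and the Dnaja4 start that holds matches on the plus strand at chr9:54699309-54699608.
Hspb1: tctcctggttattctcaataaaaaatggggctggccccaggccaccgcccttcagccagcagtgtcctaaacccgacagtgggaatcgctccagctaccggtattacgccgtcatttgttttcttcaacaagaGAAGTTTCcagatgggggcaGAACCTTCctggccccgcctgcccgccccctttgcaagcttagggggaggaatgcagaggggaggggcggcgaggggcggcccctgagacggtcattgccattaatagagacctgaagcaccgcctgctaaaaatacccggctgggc
Fkbp4: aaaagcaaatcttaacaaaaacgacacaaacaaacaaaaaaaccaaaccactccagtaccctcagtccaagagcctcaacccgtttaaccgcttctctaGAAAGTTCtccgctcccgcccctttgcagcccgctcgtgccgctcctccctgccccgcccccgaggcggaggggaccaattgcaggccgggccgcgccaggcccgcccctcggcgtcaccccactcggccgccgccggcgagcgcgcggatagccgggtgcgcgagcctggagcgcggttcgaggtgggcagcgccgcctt
Dnaja4: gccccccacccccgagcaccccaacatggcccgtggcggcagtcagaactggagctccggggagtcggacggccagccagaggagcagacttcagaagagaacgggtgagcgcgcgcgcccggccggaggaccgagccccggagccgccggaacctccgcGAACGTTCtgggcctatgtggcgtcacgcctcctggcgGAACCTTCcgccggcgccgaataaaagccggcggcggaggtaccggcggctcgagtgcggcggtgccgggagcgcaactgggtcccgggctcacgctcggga
The 2 matches of Hspb1 begin 117 and 97 bases before the start, that of Fkbp4 begins 151 bases before it, and those of Dnaja4 begin 90 and 52 bases before it. Of the 20 list members 16 had a promoter in the table and 13 of these held a match (81.2%), against 14.1% of the 11743 tested genes with a promoter. Matches did not separate the members that fell (2 of 3 with a promoter) from those not called (11 of 13), and the promoters of Serpinh1, Unc45b, Hspa1l and Creld2 held none of these letters. Among all genes that fell 15.2% held a match, and among those that rose 12.8%. A match is a string of letters and not evidence of binding.

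Of 27 genes of matrix cross-linking and turnover 0 rose and 3 fell (median -0.13): Serpinh1 and the collagen prolyl hydroxylase subunits P4ha1 and P4ha2. P4ha1 lay at 60.3 to 129 CPM (median 74.4) in controls and 43.9 to 69.5 CPM (median 60.9) with exenatide, fell by 0.55 ± 0.14 (adjusted p = 0.0278) and remained called with the trend removed. P4ha2 fell by 0.38 ± 0.08 (adjusted p = 0.0184, and 0.0628 with the trend removed). The cross-linking enzyme gene Loxl1 had -0.50 ± 0.16 (adjusted p = 0.064). Of 28 genes of fibrillar collagen and matrix 0 were called in either direction, with 22 of 28 below 0 and a median of -0.11. The summed level of 12 fibroblast markers was 2399 to 3483 CPM in aged controls and 2040 to 3601 CPM with exenatide. In bulk tissue, fewer cells of a type and less RNA per cell cannot be told apart.

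P4ha1 also belongs to the hypoxia list, genes that low oxygen raises through HIF factors, of which 3 of 16 fell and 1 rose (median -0.06). Egln3, an oxygen-sensing prolyl hydroxylase, had at least 118 CPM (median 137) in controls and 70.7 to 132 CPM (median 113) with exenatide, and fell by 0.45 ± 0.12, by 0.15 in batch 2 and by 0.90 in batch 3. With the trend removed Egln3 was not called (-0.39, adjusted p = 0.088). Ndrg1, a stress-responsive gene, fell by 0.28 ± 0.07, mostly in batch 2 (-0.41, against -0.10 in batch 3). Pdk1, the kinase that holds back pyruvate oxidation, rose by 0.21 ± 0.06, a call lost with the trend removed (0.12, adjusted p = 0.295).

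Among contractile genes, 0 of 11 thick filament genes rose and 2 fell (median -0.16), namely Unc45b and Myh7b. Myh7b, a minor myosin heavy chain gene that hosts a muscle microRNA, lay at 63 to 164 CPM (median 107) in controls and 45.9 to 116 CPM (median 58.6) with exenatide, and fell by 0.74 ± 0.16 (adjusted p = 0.0184). Myh7, the slow myosin that the stressed adult mouse heart re-expresses, had a value of 0.75 ± 0.24 that was not called (adjusted p = 0.0735), with 124 to 329 CPM in controls and 172 to 617 CPM with exenatide. Myl2, the ventricular light chain, had -0.43 ± 0.16 (adjusted p = 0.101). No gene was called among 13 thin filament or 19 Z disc, titin and intermediate filament genes. The load and fetal programme, 18 genes that rise in the overloaded heart, held 0 that rose and 1 that fell, Tnfrsf12a, the receptor of the cytokine TWEAK (10.4 to 59.6 CPM in controls, 6.8 to 20.6 CPM with exenatide; -1.11 ± 0.27, adjusted p = 0.0266). Without the trend Tnfrsf12a was not called (-0.92, adjusted p = 0.0779). Nppb, the gene of B-type natriuretic peptide, had -1.17 ± 0.44 (adjusted p = 0.108) and the matricellular gene Ccn1 -0.40 ± 0.13 (adjusted p = 0.0623). Nppb lay at 11.8 to 194 CPM in controls, highest in B16, the control with atrial transcripts, and at 11.2 to 57.5 CPM with exenatide. Its value was -0.78 in batch 2 and -1.70 in batch 3.

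Few genes of the channel and receptor lists were called. Of 25 genes on the list of sodium and potassium channels, which took in the sodium pump, 3 rose and 0 fell (median 0.03). The potassium channel gene Kcna1, which fell and is described below, was on the list of Schwann cells and nerve instead. Atp1b1, the beta subunit of the sodium pump, lay at 304 to 424 CPM (median 356) in controls and 392 to 518 CPM (median 448) with exenatide, separate within each batch, and rose by 0.29 ± 0.06 (adjusted p = 0.0183, and 0.0288 with the trend removed). Kcnj2, the inward rectifier that sets the resting potential, rose by 0.50 ± 0.11 from a median of 76.1 to 106 CPM, but not with the trend removed (0.33, adjusted p = 0.118). Kcne1, a subunit of the slow delayed rectifier, rose by 1.08 ± 0.26 from 1.92 to 3.78 CPM, beside a young median of 4.62 CPM, and kept its call in 12 of 17 fits without 1 animal. Abcc9, the sulfonylurea receptor of the ATP-sensitive channel, was not called (0.27 ± 0.09, adjusted p = 0.0883). Of 23 genes of adrenergic and cyclic AMP signalling 3 rose and 0 fell (median -0.03): Pde4d, a related phosphodiesterase gene Pde4b (0.47 ± 0.11) and the transcription factor gene Creb1 (0.32 ± 0.09). With the trend removed Pde4d alone was called, and Pde4b (adjusted p = 0.0675) and Creb1 (0.09, adjusted p = 0.563) were not. Of 15 genes of renin, angiotensin and natriuretic signalling 2 rose, the angiotensin II receptor gene Agtr1a (0.38 ± 0.09, 40 to 67.9 CPM in controls and 56.4 to 75.7 CPM with exenatide) and the endothelin receptor gene Ednrb (0.58 ± 0.17). Neither was called with the trend removed (adjusted p = 0.0527 and 0.136), and Ednrb kept its call in 4 of 17 fits without 1 animal. The endothelin gene Edn1 had 0.37 ± 0.11 (adjusted p = 0.0567).

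The genes with the largest changes were mostly low and variable. Cyp1a1, a target of the aryl hydrocarbon receptor, lay at 0.231 to 2.28 CPM (median 0.79) in controls and 1.01 to 27.7 CPM (median 3.01) with exenatide, and rose by 3.0 ± 0.76 (adjusted p = 0.0318). Only 3 treated hearts, at 9.04, 17.1 and 27.7 CPM, were far above the rest, and the call was kept in 10 of 17 fits without 1 animal. Without animal B36 the rise was 1.85 (adjusted p = 0.114), and with the trend removed it was not called (adjusted p = 0.0662). Lepr, the leptin receptor, rose by 1.19 ± 0.28 with overlapping ranges (4.43 to 10.1 against 4.75 to 21.2 CPM). It kept its call in 13 of 17 fits without 1 animal and lost it with the trend removed (adjusted p = 0.0605). Wt1, a factor of the epicardium and of coronary vessels, lay at 3.85 to 6.69 CPM (median 4.34) in controls and 5.29 to 24.9 CPM (median 8.54) with exenatide, and rose by 1.04 ± 0.22 (0.73 without animal B36, adjusted p = 0.0403). The other 9 of the 10 epicardial and mesothelial markers had values below 0 and none was called, with a summed level of 5.89 to 81.5 CPM in controls and 8.09 to 39.3 CPM with exenatide. On the falling side, Kcna1, a voltage-gated potassium channel gene, fell by 0.95 ± 0.20, and Clba1, a clathrin-binding gene, by 0.83 ± 0.21. Clba1 kept its call in 11 of 17 fits without 1 animal and lost it with the trend removed (adjusted p = 0.088), while Kcna1 kept it in both.

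No change in fuel oxidation genes was called. Of 40 nuclear-encoded genes of oxidative phosphorylation 0 rose and 0 fell, with 37 of 40 below 0 and a median of -0.17 (-0.12 with the trend removed). Counts were likewise 0 and 0 among 20 genes of fatty acid oxidation (median -0.06), 19 of the tricarboxylic acid cycle (-0.08), 21 targets of PPAR factors (0.21) and 23 of insulin and IGF signalling (0.02). Against age the oxidative phosphorylation list had 13 that fell and 0 that rose, the tricarboxylic acid cycle 7 and 0, and fatty acid oxidation 6 and 0. Over all genes 1212 rose (8.06%) and 1484 fell (9.87%) in aged controls against young hearts.

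Immune genes that rose with age were not called with exenatide. Of 17 genes of MHC class I presentation 13 rose in aged controls (median 1.05) and none was called with exenatide (median -0.18, and -0.04 with the trend removed). The MHC class II list had 6 of 9 that rose with age (median 1.1) and none called with exenatide (-0.27), and the T and NK cell markers 8 of 13 (2.08) and none (0.11). Of the tested neutrophil genes 2 of 5 rose. S100a9 lay at 0.416 to 3.24 CPM (median 0.926) in controls and 0.67 to 7.62 CPM (median 2.62) with exenatide and rose by 1.45 ± 0.42 (adjusted p = 0.0491), and Retnlg rose by 1.94 ± 0.52 (adjusted p = 0.0388). S100a8 had 1.52 ± 0.48 (adjusted p = 0.064) and Cxcr2 0.82 ± 0.55. Without animal B36, the highest library, neither S100a9 nor Retnlg was called (adjusted p = 0.137 and 0.133), and with the trend removed 0 of the 5 were called (adjusted p = 0.0871 and 0.0793 for these). All 10 neutrophil markers summed to 2.5 to 12.9 CPM in controls and 3.35 to 31.3 CPM with exenatide, and the defining genes Ly6g, Camp, Ngp and Ltf had a median count of 0.

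Hearts of the ST cohort, which shared no animal with LT, gave 298 genes that rose and 92 that fell with exenatide (1.89% and 0.584% of 15763). The ST count of 390 was 1508 in a fit of the 2 groups alone, 390 without control E32 and 66 to 255 without any other 1 of the 10 animals. Of all 603 LT calls, 9 were called in ST in the same and 2 in the opposite direction. Of the 79 LT genes called on both scales, 53 had the same direction in ST (67.1%), beside 47.4% of all 14990 genes tested in both, while of all 603 LT calls 261 did (43.3%). With the trend removed in ST as well these were 55 of 79 and 364 of 603 (60.4%), beside 53.4% of all genes. The genes called in both cohorts on both LT scales were 5, each with the same direction in both cohorts: Bcl2l11, Serpinh1, the galectin gene Lgals1, Secisbp2, which serves selenoprotein synthesis, and Abra, an actin-binding gene of striated muscle (the last 3 named because they complete the count). Bcl2l11 had 0.84 ± 0.18 in ST (adjusted p = 0.0153) and Serpinh1 -0.63 ± 0.15 (adjusted p = 0.0299). Lgals1 had -0.67 ± 0.15 in LT and -0.63 ± 0.12 in ST, Abra -0.50 ± 0.14 and -1.12 ± 0.27, and Secisbp2 0.32 ± 0.08 and 0.48 ± 0.09. Tnfrsf12a also fell in ST (-1.44, adjusted p = 0.016), as did Nppb, which was not called in LT (-2.60 ± 0.60 in ST, adjusted p = 0.0234). Of the 18 load and fetal genes 0 rose and 3 fell in ST. Cyp1a1, the largest rise in LT, had -4.17 ± 1.39 in ST (adjusted p = 0.0928). Other leading genes did not pass there: Hspa8 had -0.34 (adjusted p = 0.0845), Hspb1 -0.29, Lhx6 0.57, Meox2 -0.26 and Ifitm1 -0.88. Of the 20 chaperone genes 1 fell in ST (list median -0.25).

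In the YA hearts 1 gene rose and 1 fell (0.00679% each of 14722), while 883 had an unadjusted p under 0.05. Dnajb5, an HSP40 co-chaperone gene named here because it completes the count, fell by 0.51 ± 0.08 in YA (adjusted p = 0.0435) and by 0.53 ± 0.14 in LT (adjusted p = 0.0345). Its LT call was lost with the trend removed. Hr, a corepressor gene, rose by 0.57 ± 0.09 in YA and had -0.48 ± 0.15 in LT (adjusted p = 0.064). Of the 603 LT calls 204 of the 600 tested in YA had the same direction (34%), and of the 79 called on both scales 31 of 78 did (39.7%), beside 42.9% of all genes tested in both. With the trend removed in YA these were 283 of 600 (47.2%) and 33 of 78 (42.3%), beside 48.3% of all genes. The chaperone list had a median of -0.01 in YA, with Hspb1 at -0.01 and Hspa8 at -0.02. The YA mice were of the young cohort, while the LT and ST mice compared were aged. The 3 cohorts were normalized in separate tables, so differences between cohorts were not tested.

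**Figure D4:**
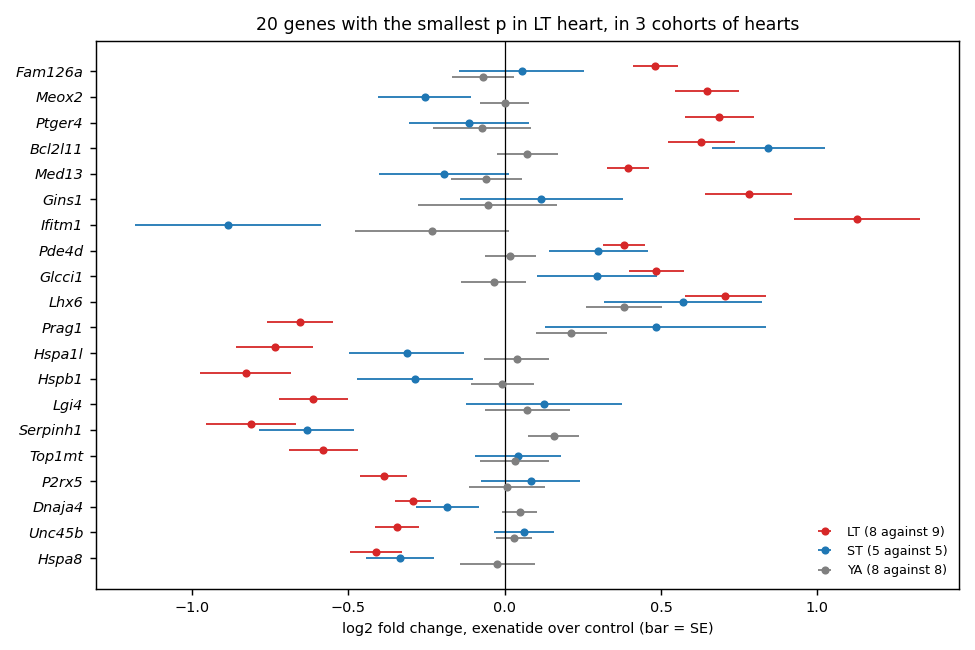
Log2 fold change with exenatide (x axis, bars are SE) of the 10 rising and 10 falling LT genes with the smallest p, in LT (red), ST (blue) and YA (grey) hearts. Bcl2l11 and Serpinh1 lie on the same side of 0 in LT and ST, most others lie near 0 in YA, and the LT values are those by which the genes were chosen.

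The same aged LT animals gave skeletal muscle, which allowed the heart's difference to be set against another striated muscle in 1 fit. The exenatide difference itself differed between the tissues for 324 of 16042 genes (2.02%), and for 72 of the 603 heart calls, 37 that rose and 35 that fell. The heart calls and named genes were chosen by heart values that also enter this comparison, so their share cannot be set against the 2.02%. Glcci1 rose in heart and fell in muscle (-0.80, adjusted p = 0.0011), a difference of 1.29 ± 0.18 (adjusted p = 0.0029). For Hspa1l the difference was -0.89 ± 0.13 (adjusted p = 0.0034), with 0.16 in muscle, and for Hspb1 -0.64 ± 0.12 (adjusted p = 0.0151), with -0.22 in muscle. Top1mt (-0.61), Med13 (0.62), Agtr1a (0.49) and Manf (-0.53) differed too. With the trend removed the differences of Glcci1, Hspa1l, Agtr1a and Ppp1r1a remained called, and those of Hspb1 (adjusted p = 0.118), Med13 (0.0514), Top1mt (0.0667) and Manf (0.0965) did not. For Meox2 (0.50 in muscle), Ptger4 (1.05), Bcl2l11 (0.62), Ifitm1 (1.24) and Serpinh1 (-0.76) the muscle passed the test in the same direction as the heart, and no difference between tissues was called, which does not show that the tissues responded alike. Ppp1r1a, a protein phosphatase inhibitor gene that was not called in heart alone (-0.77 ± 0.28, adjusted p = 0.0937), rose in muscle (0.86, adjusted p = 0.0013) and differed by -1.69 ± 0.26.

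**Figure D5:**
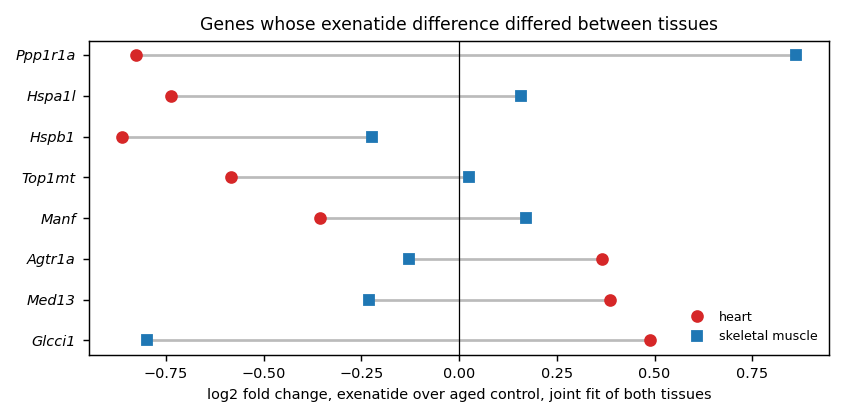
Log2 fold change with exenatide (x axis) in heart (circles) and skeletal muscle (squares) of the same animals. Shown are the 8 named genes whose difference between tissues passed an adjusted p of 0.05. Muscle values come from the fit without the animal block, and heart values are these plus the difference from the fit with it. Glcci1 and Ppp1r1a lie on opposite sides of 0 in the 2 tissues.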

How the data were processed

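Poly(A) RNA of hearts was sequenced, 1 library per animal; per the labels' protocols, libraries were made with the NEBNext Ultra II kit. Reads were checked with FastQC 0.11.9 and the build is GRCm39, per the submitters' processing notes; the aligner and counter are not given in the sources used here. For LT, the authors deposited a table that holds whole-number counts of 24850 genes. The ST and YA tables deposited by the authors hold estimated counts per gene, rounded here (about 7.39% and 7.44% of the non-zero heart values were not whole). Groups and animals come from titles and batches from descriptions.

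Counts were tested with edgeR 4.0.16 (R 4.3.3): TMM, filterByExpr by group, robust quasi-likelihood fit over the 25 LT hearts with batch as a term, Benjamini-Hochberg adjustment over the 15036 genes tested, called under 0.05. The SE is the log2 fold change over the root of F. CPM are TMM-scaled. Heart was compared with muscle with animal as a block and a term for tissue by batch. Muscle values and their adjusted p come from a fit of both tissues without the animal block. Alternatives were DESeq2's size factors, DESeq2 1.42.0 (Wald), no filter, the compared groups only, no batch term, single batches, and each animal left out; after the data were seen, a trend on length and GC (GENCODE M21, natural splines with 4 degrees of freedom, 93.99% of tested genes with a value; the rest got no offset of their own) was removed. The steps were tested on simulated counts.

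Members and gene lists were chosen with earlier results of these data known. Named genes are, among called genes with an average log2 CPM of at least 1 and without predicted, clone or pseudogene names, the 10 rising and 10 falling with the smallest p, the 5 of each with the largest change, and up to 4 members with the smallest p of lists described. A gene that this rule also names is not reported here. Promoters are RefSeq's, in GRCm38.p6.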

Additional observations from a re-analysis of the deposited data

Results flagged for a closer look

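In 21 of 171 groups of 1 named gene, the highest library lay apart from the rest by Dixon's 95% criterion, where chance gives about 1 in 20. Among exenatide hearts, animal B36 (batch 3) was high for Ifitm1 (14.8 CPM), Ptger4 (23.2 CPM) and Wt1 (24.9 CPM), animal B30 for Clba1 (3.68 CPM), Hsp90ab1 (1797 CPM), Myh7b (116 CPM) and Unc45b (258 CPM), and animal B13 for Hspa8 (1729 CPM). For the genes that fell these libraries lay toward the control level. Among aged controls, B16 was high for Clba1 (11.03 CPM) and S100a8 (2.98 CPM), B34 for Lepr (10.1 CPM) and Retnlg (0.868 CPM), and B37 for Edn1 (7.07 CPM). Among young hearts, A51 was high for Hspb1 (421 CPM), Loxl1 (72.6 CPM), Manf (46.02 CPM), Pdia4 (44.2 CPM) and Tnfrsf12a (83.1 CPM), A52 for S100a9 (1.80 CPM), A55 for Edn1 (7.52 CPM) and A56 for Cyp1a1 (4.90 CPM). Young A51 thus stood apart in 5 genes, of which Hspb1, Manf and Pdia4 are chaperone or endoplasmic reticulum stress genes.

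The exenatide difference in heart differed from that in skeletal muscle of the same animals, by the interaction test, for 8 named genes: Glcci1 (1.29), Med13 (0.62) and Agtr1a (0.49) were higher in heart on the log2 scale, and Ppp1r1a (-1.69), Hspa1l (-0.89), Hspb1 (-0.64), Top1mt (-0.61) and Manf (-0.53) lower. With the length and GC trend removed, Glcci1, Agtr1a, Ppp1r1a and Hspa1l still differed and Med13, Hspb1, Top1mt and Manf did not pass (adjusted p = 0.0514, 0.118, 0.0667 and 0.0965). The named genes were chosen by their heart values, which also enter this test.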

How the results depend on the processing

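No paired analysis was possible because each animal belongs to 1 condition, so the groups compared share no animal. The number of genes called for exenatide in LT hearts was 603. It was 321 with no filter on low counts (150 rose and 171 fell), 1266 by DESeq2's Wald test, 1588 with the 2 aged groups only (772 rose and 816 fell), 4 with no batch term, 198 in batch 2 alone, 0 in batch 3 alone and 102 with the length and GC trend removed, and 82 to 1059 without 1 animal. DESeq2's size factors gave 545, 539 of them shared. The age count of 2696 was 1183 with no batch term, 78 in batch 3 alone and 2007 to 3108 without 1 animal. The difference between heart and muscle (324) was 213 with no filter, 495 with no animal block and 140 with the trend removed. The YA count of 2 was 24 by DESeq2's Wald test. The ST count of 390 was 128 with no filter, 859 by DESeq2's Wald test, 1508 with 2 groups only and 66 to 390 without 1 animal. The cause of these shifts was not tested. Of the 45 named genes reported and called for exenatide, none changed direction in any alternative run. Calls were kept for 27 of 45 with the trend removed, 3 with no batch term, and 26 without B40, the lowest of the fits without 1 animal.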

Other observations

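Several groups of genes linked to ageing or to hormone signals had few or no calls with exenatide in LT hearts. Of 19 genes of the circadian clock and its outputs 0 rose and 0 fell (median log2 fold change 0.04), and the same held for 16 glucocorticoid-responsive genes (0.12), 14 senescence and cell cycle inhibitor genes (-0.03), 26 genes of oxidative stress and NRF2 (-0.02) and 31 interferon-stimulated genes (-0.04). Against age, 4 of the 14 senescence genes and 5 of the 31 interferon-stimulated genes rose. Of 26 proliferation genes 1 fell (median -0.17), and of 30 cytosolic ribosome genes 1 fell with the counts as deposited (median -0.07) and 1 rose with the length and GC trend removed (0.01). Among 7 lymphatic endothelial markers 1 rose, Prox1, a homeobox gene, named here after its value was seen.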
